A study of Mus musculus with 8 samples.

Results

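The levels of 34 DNA replication and S phase genes were examined in splenic B cells of mice that carry human PRMT5, human TCL1 or both transgenes. The genes were taken by symbol from the bulk RNA-seq count matrix of mice at early removal criteria (ERC, the state of disease at which an animal is taken from the study). All 34 were among the 24902 symbols of the matrix, had a count in all 8 libraries and passed the expression filter, which left 13173 genes. They comprise the 6 MCM helicase subunits, 4 genes of origin licensing, 5 of helicase activation, 6 of the sliding clamp and its loader, 5 polymerase and primase subunits, 2 genes that join Okazaki fragments, 4 of nucleotide supply and 2 regulators.

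The 8 mice were of strain C57BL/6N by the labels. They comprised 4 Eµ-PRMT5 mice, 3 Eµ-PRMT5/TCL1 mice and 1 Eµ-TCL1 mouse. In Eµ-PRMT5 mice, a human PRMT5 cDNA is driven by an immunoglobulin heavy chain promoter and the Eµ enhancer, which are active in immature and mature B cells. PRMT5 is an enzyme that places symmetric dimethyl marks on arginines. Eµ-PRMT5/TCL1 mice were bred by crossing such animals with the Eµ-TCL1 line, a mouse model of chronic lymphocytic leukemia (CLL) in which human TCL1 is expressed from the same kind of B cell promoter. Non-transgenic mice were not analysed here, so each group carried at least 1 oncogenic transgene and none served as a normal control. Each mouse gave 1 library, and age at ERC was not given in the labels.

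Replication starts when the origin recognition complex, with Cdc6 and Cdt1, loads the ring-shaped MCM2-7 helicase onto DNA in G1 phase. Cdc45 and the GINS complex then bind the helicase and start it, primase and polymerase alpha lay down primers, and polymerases delta and epsilon copy the strands while held by the Pcna clamp. The genes of this machinery are transcribed together as cells pass from G1 into S phase, in large part through E2F transcription factors, and most CLL cells in the blood are not dividing. A level in bulk RNA is an average over the cells of the isolate. More cells in S phase and more RNA in each such cell cannot be told apart in these data.

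Counts on genes ranged from 3356297 in the Eµ-TCL1 mouse to 10252426 in Eµ-PRMT5 mouse 4. Levels are given as CPM (counts relative to the library total after TMM scaling), or as log2 CPM with a prior count of 2. The mean log2 CPM of all tested genes lay between 4.55 and 4.85 in the 8 libraries. The counts of single members ran from 7, for Fen1 in the Eµ-TCL1 mouse, to 8838, so counting error was large for the lowest of them. The rows carry mouse symbols, and whether reads of the human transgenes were counted on them is not stated, so the genotype labels were not checked against the counts.

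The replication genes were high in 1 Eµ-PRMT5 mouse, intermediate in the 3 double transgenic mice, and low in the Eµ-TCL1 mouse and the other 3 Eµ-PRMT5 mice. The mean log2 CPM of the 34 members was 5.24 in Eµ-PRMT5 mouse 1, 5.21 in mouse 2, 5.73 in mouse 3 and 7.64 in mouse 4. Eµ-PRMT5/TCL1 mice 1 to 3 had means of 6.50, 5.97 and 6.75, and the Eµ-TCL1 mouse 5.37. The 3 double transgenic values lay above those of Eµ-PRMT5 mice 1 to 3 and below that of mouse 4, so the genotypes overlapped. The group means were 5.96 ± 1.15 (SD, n = 4) in Eµ-PRMT5 mice and 6.41 ± 0.40 (SD, n = 3) in Eµ-PRMT5/TCL1 mice. Their difference, 0.45 on the log2 scale, was smaller than the pooled SD within groups of 0.926. Without Eµ-PRMT5 mouse 4, the mean of that group was 5.39 and the difference 1.01. It fell to 0.21 without Eµ-PRMT5 mouse 1, to 0.20 without Eµ-PRMT5 mouse 2 and to 0.28 without Eµ-PRMT5/TCL1 mouse 3.

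**Figure D1:**
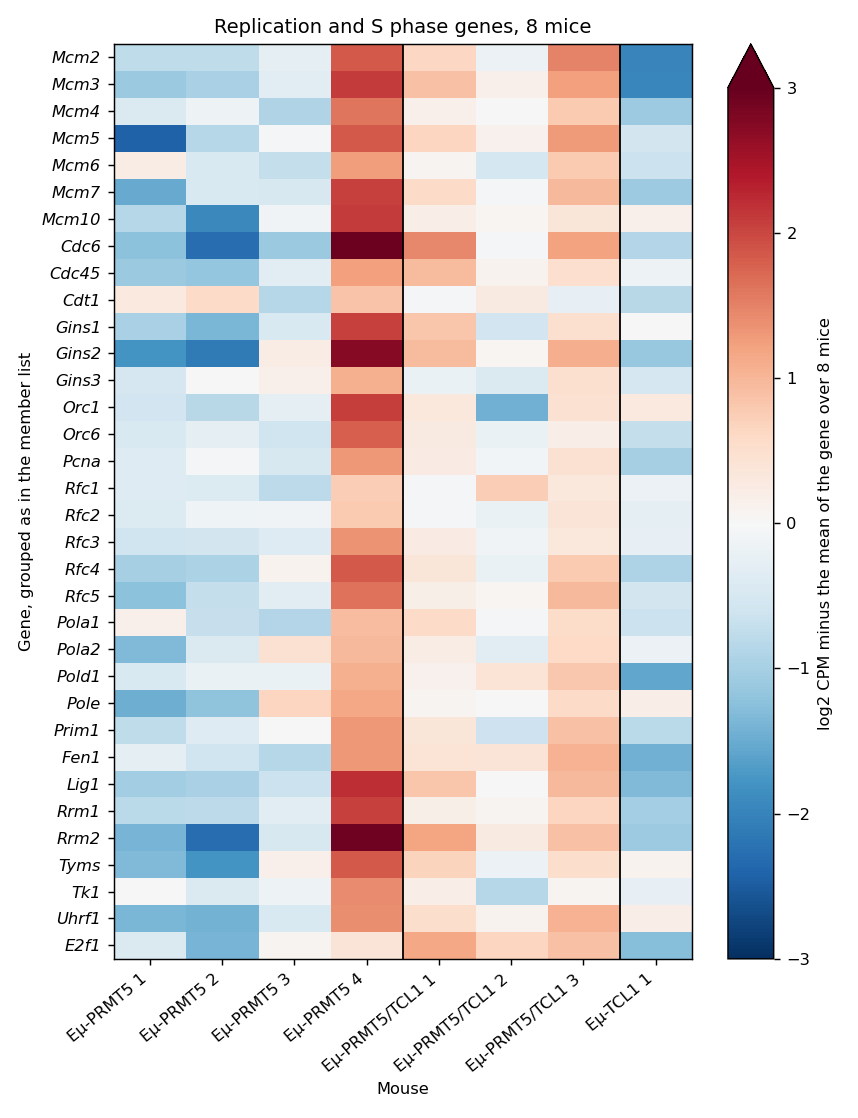
Heat map of the 34 members (rows) in the 8 mice (columns, grouped by genotype), coloured by log2 CPM minus the mean of the gene over the 8 mice. The column of Eµ-PRMT5 mouse 4 is the reddest for 32 of the 34 genes, the exceptions being E2f1 and Rfc1.

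The promoters of the members are shown for 5 genes, 4 that carry an E2F-type element and 1, Rrm2, that carries none in the window. All 5 were highest in Eµ-PRMT5 mouse 4, with every double transgenic mouse above Eµ-PRMT5 mice 1 to 3. Members that departed from this order are not shown. They include Rfc1 and E2f1, and also Cdt1, Gins3, Mcm6, Orc1 and Pola1, which carry an E2F-type element. Every double transgenic mouse lay above Eµ-PRMT5 mice 1 to 3 for 19 of the 34 members. The same held for 5.5% of all genes, which is no like baseline because mouse 4 is left out. Each sequence runs from 250 bases before to 50 bases after the start site in the orientation of the gene (RefSeq, GRCm38.p6), and capitals mark E2F-type matches. In Mcm5 the capitals cover a pair of matches that overlap. The windows lie at chr11:98907901-98908200 on the + strand for Cdc6, chr1:20820263-20820562 on the - strand for Mcm3, chr8:75109259-75109558 on the + strand for Mcm5, chr5:151651159-151651458 on the - strand for Rfc3 and chr12:24708004-24708303 on the + strand for Rrm2.
Cdc6: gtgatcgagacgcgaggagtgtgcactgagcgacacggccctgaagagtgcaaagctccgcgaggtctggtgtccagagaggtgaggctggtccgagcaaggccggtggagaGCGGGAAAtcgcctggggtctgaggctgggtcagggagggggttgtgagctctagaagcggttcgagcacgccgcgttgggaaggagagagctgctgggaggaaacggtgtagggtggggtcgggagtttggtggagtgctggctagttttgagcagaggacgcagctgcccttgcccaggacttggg
Mcm3: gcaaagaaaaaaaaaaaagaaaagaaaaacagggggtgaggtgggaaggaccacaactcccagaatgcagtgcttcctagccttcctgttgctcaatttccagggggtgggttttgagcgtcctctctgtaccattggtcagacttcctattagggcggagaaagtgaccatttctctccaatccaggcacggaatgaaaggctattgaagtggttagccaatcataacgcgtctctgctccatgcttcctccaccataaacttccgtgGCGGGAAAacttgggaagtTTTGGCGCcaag
Mcm5: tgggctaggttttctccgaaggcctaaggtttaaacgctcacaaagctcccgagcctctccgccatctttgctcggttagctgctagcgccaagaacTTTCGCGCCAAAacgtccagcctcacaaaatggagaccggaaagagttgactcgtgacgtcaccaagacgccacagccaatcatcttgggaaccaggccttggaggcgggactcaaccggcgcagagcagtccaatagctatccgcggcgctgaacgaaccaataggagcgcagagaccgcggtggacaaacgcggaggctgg
Rfc3: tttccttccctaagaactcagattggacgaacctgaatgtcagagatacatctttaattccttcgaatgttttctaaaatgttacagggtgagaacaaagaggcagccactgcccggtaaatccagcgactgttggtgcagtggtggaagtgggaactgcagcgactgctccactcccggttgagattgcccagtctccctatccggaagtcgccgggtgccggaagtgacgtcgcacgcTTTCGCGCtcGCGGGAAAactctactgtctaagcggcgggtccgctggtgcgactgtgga
Rrm2: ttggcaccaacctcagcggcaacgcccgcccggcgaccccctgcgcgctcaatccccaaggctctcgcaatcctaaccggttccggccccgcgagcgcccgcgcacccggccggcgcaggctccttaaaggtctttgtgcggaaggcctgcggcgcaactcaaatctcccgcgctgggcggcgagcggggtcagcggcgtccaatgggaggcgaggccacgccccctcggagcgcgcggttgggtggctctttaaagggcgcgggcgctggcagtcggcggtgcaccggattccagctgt

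Of the 34 members, 29 had a promoter in the RefSeq table. The letters TTTCCCGC, TTTGGCGC, TTTCGCGC or TTTGCCGC, on either strand, occurred in 13 of the 29 (44.8%), where a gene counts if any of its promoters holds a match, against 2.6% of all 27025 genes with promoter windows of the same length. The 13 genes were Cdc6, Cdt1, Gins3, Lig1, Mcm3, Mcm5, Mcm6, Mcm7, Orc1, Pola1, Pold1, Rfc3 and Uhrf1. CCAAT was found in 18 members (62.1%) and in 41.1% of all genes, and the GC box GGGCGG in 22 members (75.9%) and in 38.2%. The CHR element of mitotic genes, searched as TTTGAA or TTCGAA, occurred in 6 members (20.7%), against 21.7% of all genes. These matches describe letters in a window and not binding. The CPM of Eµ-PRMT5 mouse 4 over the mean of the other Eµ-PRMT5 mice had a median of 5.34 in the 13 members with an E2F-type match. In the 16 without, the median was 4.49. A link between the element and the levels was not tested. For E2f1 and Cdc6 the whole window lies downstream of the start of the GENCODE gene, and so do the matched windows of Lig1, Mcm7 and Uhrf1. These windows, and the matches in them, hold gene sequence.

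Eµ-PRMT5 mouse 4 had the highest level of all 8 mice for 32 of the 34 members, against 20.1% of all tested genes. It lay above the other 3 Eµ-PRMT5 mice for 34 of 34 members (27.8% of all genes), and by over 2 times the highest of them for 27 members (6.26% of all genes). The ratio of its CPM to the mean of the other 3 ran from 1.66 for Cdt1 to 21.6 for Cdc6, with a median of 4.50 over the members. The spread between Eµ-PRMT5 mice was accordingly wide. The median SD of a member's log2 CPM was 1.19 in the 4 Eµ-PRMT5 mice, 0.455 without mouse 4 and 0.459 in the 3 Eµ-PRMT5/TCL1 mice. For all tested genes these medians were 0.660, 0.583 and 0.362. This library was also the deepest. With every library thinned to the total of the smallest one, mouse 4 was the highest of the 8 for 33 members.

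Among the MCM helicase subunits, Mcm3 was at 85.0, 93.9, 147 and 783 CPM in Eµ-PRMT5 mice 1 to 4, at 339, 206 and 433 CPM in the 3 Eµ-PRMT5/TCL1 mice and at 47.0 CPM in the Eµ-TCL1 mouse. Mcm2 followed a similar order of mice, with 99.0, 98.5, 137 and 604 CPM, then 259, 148 and 472 CPM, and 42.2 CPM in the Eµ-TCL1 mouse. For both genes the Eµ-TCL1 mouse was the lowest of the 8, and each double transgenic mouse lay above Eµ-PRMT5 mice 1 to 3. Mcm5 was lowest in Eµ-PRMT5 mouse 1 (37.7 CPM), where Mcm6 stood at 493 CPM. Mcm6 differed from the other subunits in this way. It was at 493, 310, 258 and 1019 CPM in mice with PRMT5 alone and at 447, 293 and 734 CPM in the Eµ-PRMT5/TCL1 mice, so that the double transgenic mice overlapped with the Eµ-PRMT5 mice even without mouse 4. Per kilobase of annotated exon, the mean level of Mcm6 over 8 mice was 103 CPM per kb, and it was the highest of the 34 members in 3 mice, as Pcna was in 3 others and Rrm2 in 2. Mcm3 and Mcm5 had means of 71.1 and 70.4 CPM per kb. Mcm4 was at 102, 125, 73.9 and 419 CPM in Eµ-PRMT5 mice and at 154, 139 and 240 CPM in Eµ-PRMT5/TCL1 mice. Mcm7 was at 55.2, 115, 113 and 663 CPM and then at 236, 155 and 311 CPM. In every subunit but Mcm6, the double transgenic mice did not overlap with Eµ-PRMT5 mice 1 to 3.

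The licensing genes split. Cdc6, the loader ATPase that is made anew in each cycle, had the largest ratio of highest to lowest CPM of the 34 members, 39.2. It was at 12.8, 6.02, 13.9 and 236 CPM in Eµ-PRMT5 mice 1 to 4, at 84.1, 29.3 and 71.5 CPM in Eµ-PRMT5/TCL1 mice and at 16.5 CPM in the Eµ-TCL1 mouse. Cdt1, which brings the helicase to the origin and is controlled mainly through destruction of its protein, was at 110, 134, 49.9 and 162 CPM in Eµ-PRMT5 mice and at 87.7, 109 and 75.5 CPM in Eµ-PRMT5/TCL1 mice. The 2 genes thus ordered the mice differently, and Cdt1 was the member in which mouse 4 stood out least. Orc6, an origin recognition subunit, was at 24.2, 27.1 and 21.9 CPM in Eµ-PRMT5 mice 1 to 3 and at 117 CPM in mouse 4, with 40.3, 28.9 and 38.6 CPM in the double transgenic mice. Orc1, the subunit whose level falls and returns with each cycle, reached 42.3 CPM in Eµ-PRMT5 mouse 4, and the other 7 mice had 3.43 to 13.7 CPM.

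**Figure D2:**
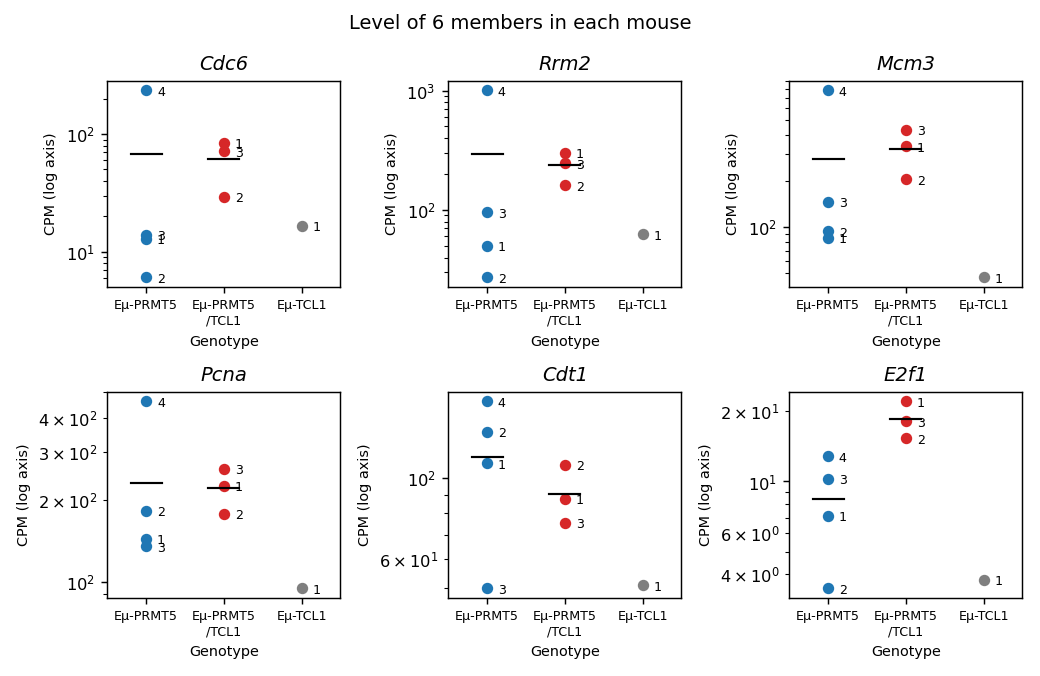
CPM (log axis) of Cdc6, Rrm2, Mcm3, Pcna, Cdt1 and E2f1 by genotype, 1 numbered point per mouse, with bars at the mean CPM of groups with more than 1 mouse. In each gene but E2f1, Eµ-PRMT5 mouse 4 stands above the other mice, and in E2f1 all 3 Eµ-PRMT5/TCL1 mice stand above it.

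All 5 helicase activation genes were highest in Eµ-PRMT5 mouse 4. Gins2, a GINS subunit, was at 3.45, 2.69, 15.0 and 87.6 CPM in Eµ-PRMT5 mice 1 to 4 and at 25.2, 13.4 and 27.8 CPM in Eµ-PRMT5/TCL1 mice. Cdc45, its partner on the helicase, was at 17.9, 17.3, 30.5 and 91.4 CPM in Eµ-PRMT5 mice and at 75.1, 41.9 and 55.9 CPM in Eµ-PRMT5/TCL1 mice. For Cdc45 the double transgenic mice came closest to mouse 4 and did not overlap with the other 3 Eµ-PRMT5 mice. Gins1, another subunit of the complex, was at 5.89, 4.43, 8.66 and 50.3 CPM, then at 21.6, 7.86 and 16.9 CPM. Gins3 spanned less, from 16.2 to 49.1 CPM over all 8 mice. Mcm10, which helps to start the loaded helicase, was at 46.8 CPM in the Eµ-TCL1 mouse, within the 43.9 to 54.7 CPM of the Eµ-PRMT5/TCL1 mice.

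The clamp and loader genes summed to between 500.1 and 1655 CPM. Pcna, the clamp itself, which has pseudogenes that could share its reads, was at 144, 183, 135 and 463 CPM in Eµ-PRMT5 mice, at 225, 178 and 260 CPM in Eµ-PRMT5/TCL1 mice and at 94.6 CPM in the Eµ-TCL1 mouse. The large loader subunit Rfc1, which also acts outside S phase in repair, departed from the order of the other members. It was at 79.8, 78.2, 60.6 and 173 CPM in Eµ-PRMT5 mice and at 101, 173 and 130 CPM in Eµ-PRMT5/TCL1 mice. Double transgenic mouse 2, the lowest of its group for most members, thus had the highest Rfc1 level, by less than the rounding of these values. Rfc2 ranged from 176 to 401 CPM over the 8 mice. Rfc3, Rfc4 and Rfc5 were highest in Eµ-PRMT5 mouse 4, at 130, 205 and 283 CPM.

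Of the polymerase and primase subunits, Pold1, the catalytic subunit of polymerase delta, was at 113, 134, 134 and 323 CPM in Eµ-PRMT5 mice. It was at 169, 205 and 271 CPM in Eµ-PRMT5/TCL1 mice and at 52.2 CPM in the Eµ-TCL1 mouse, the lowest of the 8. Pole, the catalytic subunit of polymerase epsilon, was at 24.96 and 29.6 CPM in Eµ-PRMT5 mice 1 and 2 and at 109 CPM in mouse 3, which exceeded all 3 double transgenic mice (68.6 to 102 CPM). Pola2, the regulatory subunit of polymerase alpha, was likewise high in Eµ-PRMT5 mouse 3 (128 CPM). Prim1, the catalytic primase subunit, was at 29.6, 38.8, 51.1 and 125 CPM in Eµ-PRMT5 mice and at 65.4, 32.6 and 93.7 CPM in the double transgenic mice. Eµ-PRMT5 mouse 3 stood nearer to the double transgenic mice for Pole and Pola2 than mice 1 and 2 did.

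Lig1, the ligase that seals Okazaki fragments, was at 43.2, 45.0, 57.2 and 412 CPM in Eµ-PRMT5 mice, at 158, 88.4 and 175 CPM in Eµ-PRMT5/TCL1 mice and at 35.1 CPM in the Eµ-TCL1 mouse. The flap nuclease Fen1 had a mean of 2.84 CPM per kb and was the lowest of the 34 members per kilobase in 3 of the 8 mice, and its counts ran from 7 to 126. Its exons overlap a gene on the other strand, which holds for 12 of the 34 members, and whether strand was used in counting is not stated. Fen1 and Lig1 both had each double transgenic mouse above Eµ-PRMT5 mice 1 to 3 and the Eµ-TCL1 mouse.

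The nucleotide supply genes were all highest in Eµ-PRMT5 mouse 4. Rrm2, the subunit of ribonucleotide reductase whose level follows S phase, was at 50.3, 27.2, 95.7 and 1002 CPM in Eµ-PRMT5 mice 1 to 4. It was at 301, 161 and 246 CPM in Eµ-PRMT5/TCL1 mice and at 62.7 CPM in the Eµ-TCL1 mouse. Its partner Rrm1, more constant through the cycle, was at 112, 114, 153 and 815 CPM, then at 221, 205 and 305 CPM, and at 96.0 CPM in the Eµ-TCL1 mouse. Both genes placed every double transgenic mouse above Eµ-PRMT5 mice 1 to 3. Thymidine kinase Tk1 did not, with 85.6, 64.0, 77.1 and 231 CPM in Eµ-PRMT5 mice and 98.2, 47.0 and 90.7 CPM in Eµ-PRMT5/TCL1 mice. Tyms, which makes thymidylate and has a pseudogene that could share its reads, was at 81.4 CPM in the Eµ-TCL1 mouse and at 66.8 to 120 CPM in Eµ-PRMT5/TCL1 mice.

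E2f1, the transcription factor that activates many of the other members, was the only member in which every Eµ-PRMT5/TCL1 mouse exceeded every Eµ-PRMT5 mouse (1.35% of all tested genes). It was at 7.10, 3.48, 10.3 and 12.8 CPM in Eµ-PRMT5 mice, at 22.1, 15.3 and 18.1 CPM in Eµ-PRMT5/TCL1 mice and at 3.79 CPM in the Eµ-TCL1 mouse. The counts behind these levels were 35, 22, 45 and 111, then 135, 107 and 118, and 14. No member had every double transgenic mouse below every Eµ-PRMT5 mouse (1.59% of all genes). Uhrf1, which carries DNA methylation through replication, was at 51.3, 50.0, 96.7 and 353 CPM in Eµ-PRMT5 mice and at 192, 143 and 275 CPM in Eµ-PRMT5/TCL1 mice. In the Eµ-TCL1 mouse it was at 154 CPM, within the range of the double transgenic mice and unlike most members.

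Tested across the whole table, the genotypes could not be separated by any member. In the comparison of double transgenic with Eµ-PRMT5 mice, edgeR's quasi-likelihood test called 0 of 34 members at an adjusted p under 0.05 (0% of all genes), and 0 of 13173 genes. At an unadjusted p under 0.05 it found 0 members higher (0.957% of all genes) and 0 lower (1.21%), where DESeq2 found 1 higher, E2f1 (1.11% of all genes in that tool). At its adjusted p DESeq2 called 4 genes, of which 0 were members. The fitted log2 fold change was above 0 for 15 members and below 0 for 19. It was largest for E2f1, at 1.13 (standard error 0.52, adjusted p = 1.00 in edgeR's quasi-likelihood test). Uhrf1, Cdc45 and Fen1 followed at 0.56, 0.55 and 0.48, with standard errors of 0.62, 0.56 and 0.63. The lowest values were those of Orc1 (-0.68, standard error 0.78), Tk1 (-0.54, standard error 0.48), Orc6 (-0.41, standard error 0.58) and Mcm10 (-0.38, standard error 0.74). For Orc1, Orc6 and Mcm10 the value was smaller than its standard error.

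These directions rested on Eµ-PRMT5 mouse 4. Fitted without it, 33 members were above 0 and 1, Cdt1 (-0.11), below, and the median log2 fold change of the members was 0.92, beside -0.07 for all genes. At an unadjusted p under 0.05, 20 members were higher (2.98% of all genes) and 0 lower (2.8%) in edgeR's quasi-likelihood test. No member and no other gene passed at an adjusted p under 0.05 (0% of all genes), and the lowest adjusted p of a member was 0.412, for Cdc6. The log2 fold change of Cdc6 went from -0.13 (standard error 1.01) to 2.50 (standard error 0.51), that of Rrm2 from -0.32 (standard error 0.96) to 2.03 (standard error 0.46), and that of Lig1 from 0.01 to 1.54. E2f1 moved from 1.13 to 1.42 (standard error 0.55). Counted over mice, every double transgenic mouse lay above Eµ-PRMT5 mice 1 to 3 for 19 members (5.5% of all genes). Mouse 4 was the highest Eµ-PRMT5 mouse for 34 of 34 members, against 27.8% of all genes. Leaving it out thus lowers its group for every member but only for part of all genes. The shares of all genes are therefore not a like baseline for the counts without mouse 4.

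**Figure D3:**
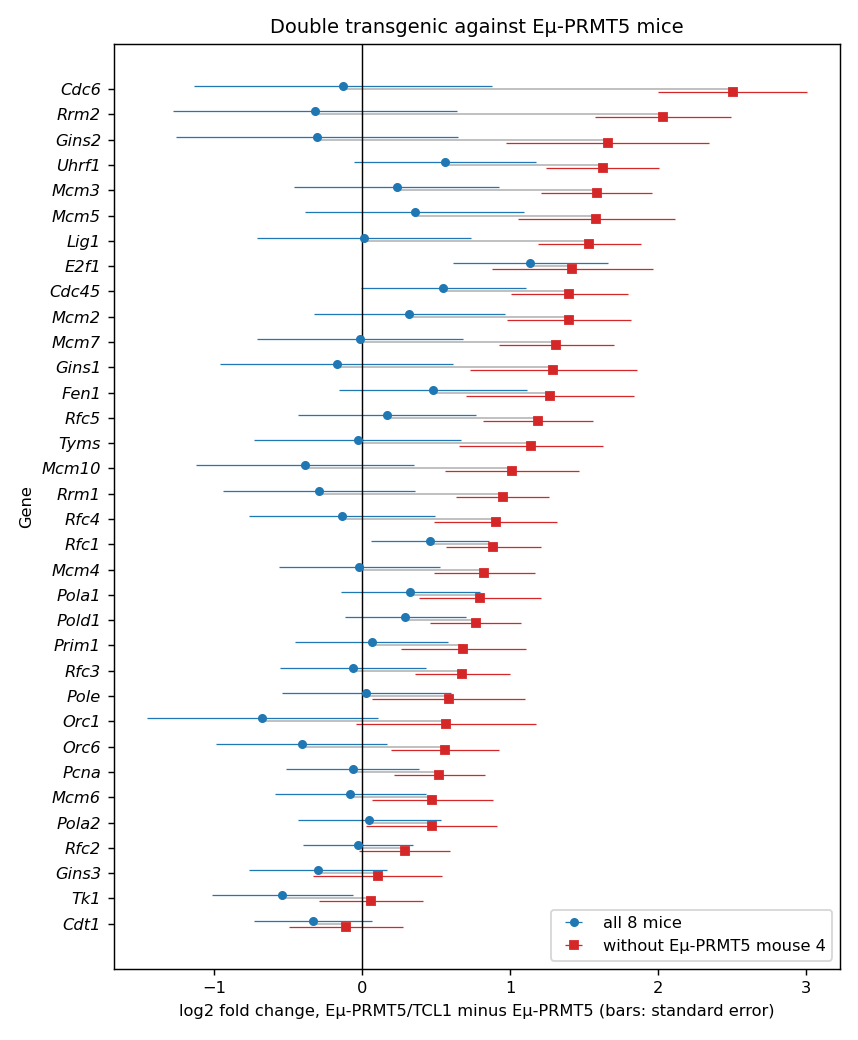
Log2 fold change of each member in double transgenic minus Eµ-PRMT5 mice from edgeR, with all 8 mice (circles) and without Eµ-PRMT5 mouse 4 (squares), with standard errors as bars and members sorted by the second value. With all mice 15 of 34 values lie above 0, and without mouse 4 all but Cdt1 do.

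The 3 Eµ-PRMT5/TCL1 mice were ordered alike by most members. Mouse 2 was the lowest of the 3 for 31 members (31.9% of all genes). In 22 members mouse 3 was the highest and mouse 1 second, and in 9 members mouse 1 was the highest and mouse 3 second. The remaining members were Cdt1, Rfc1 and Pold1. Orc1 showed the contrast most clearly, at 3.43 CPM in mouse 2 against 12.3 and 13.7 CPM in mice 1 and 3, though on low counts of 24 against 75 and 89.

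The comparisons with TCL1 alone rest on 1 mouse, are made with the spread of the other groups and ask only whether this animal lies apart. They also share that mouse, so that they are not independent of each other. For Eµ-PRMT5 against Eµ-TCL1, edgeR's quasi-likelihood test called 0 members at an adjusted p under 0.05 (0% of all genes). At an unadjusted p it found 1 member higher, Pold1 (1.96% of all genes), and 0 lower (4.82%). For Eµ-PRMT5/TCL1 against Eµ-TCL1 it again called 0 at an adjusted p (0% of all genes), with 4 higher at an unadjusted p, Mcm2, Mcm3, Pold1 and E2f1 (1.75% of all genes), and 0 lower (4.33%). DESeq2 found 3 and 5 members higher at an unadjusted p (4.92% and 3.62% of all genes) and also 0 at an adjusted p. The log2 fold changes against the Eµ-TCL1 mouse were 2.48 (standard error 1.14) and 2.80 (standard error 1.18) for Mcm2, in Eµ-PRMT5 and in Eµ-PRMT5/TCL1 mice. For Pold1 they were 1.75 (standard error 0.69) and 2.04 (standard error 0.72), and for E2f1 1.15 (standard error 0.87) and 2.28 (standard error 0.94). The fitted value was above 0 for 32 members in Eµ-PRMT5 mice and for 33 in Eµ-PRMT5/TCL1 mice, where Orc1 was at -0.31. The set mean was higher than in the Eµ-TCL1 mouse by 0.59 in Eµ-PRMT5 mice, or by 0.03 without mouse 4, and by 1.04 in Eµ-PRMT5/TCL1 mice. The Eµ-TCL1 mouse was the lowest of the 8 for 11 members (14.2% of all genes), and every double transgenic mouse lay above it for 26 (27.6% of all genes).

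A wider list of 53 other replication genes, all of them tested, ordered the mice in a similar way. Its mean log2 CPM was 4.96, 4.81, 5.08 and 6.46 in Eµ-PRMT5 mice, 5.71, 5.25 and 5.71 in Eµ-PRMT5/TCL1 mice and 5.12 in the Eµ-TCL1 mouse, and 42 of the 53 genes were highest in Eµ-PRMT5 mouse 4. In each of the 3 comparisons, 0 of these genes passed edgeR's quasi-likelihood test in either direction, at an adjusted or an unadjusted p. For Eµ-PRMT5/TCL1 against Eµ-PRMT5 the median log2 fold change was -0.04. The highest values were those of the helicase Mcm8 (0.50), the nucleoside kinase Dck (0.49), the chromatin assembly subunit Chaf1a (0.49) and Pold4 (0.44). The lowest were those of Orc2 (-0.87), Orc4 (-0.61), the MCM-binding protein Mcmbp (-0.58) and Orc3 (-0.55). Orc2, an origin recognition subunit that is made throughout the cycle, was at 37.7, 74.3, 33.97 and 92.7 CPM in Eµ-PRMT5 mice and at 29.5, 30.5 and 37.8 CPM in Eµ-PRMT5/TCL1 mice. Unlike most members, it placed the double transgenic mice among or below the lowest Eµ-PRMT5 mice. Pold4, the small subunit of polymerase delta that is degraded in S phase, ran opposite to the members, with 7.38 CPM in Eµ-PRMT5 mouse 4, where the other 3 of its genotype had 48.6 to 66.6 CPM.

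Genes of mitosis marked the same mouse. All 17 genes of a mitosis list were highest in Eµ-PRMT5 mouse 4, and their mean log2 CPM was 4.52, 3.65, 5.41 and 8.05 in Eµ-PRMT5 mice, 6.58, 5.51 and 6.50 in Eµ-PRMT5/TCL1 mice and 5.38 in the Eµ-TCL1 mouse. Mki67, which encodes the Ki67 antigen of cycling cells, was at 74.3, 27.9, 98.3 and 806 CPM in Eµ-PRMT5 mice and at 206, 124 and 404 CPM in Eµ-PRMT5/TCL1 mice. It was at 130 CPM in the Eµ-TCL1 mouse, above Eµ-PRMT5 mice 1 to 3 and above double transgenic mouse 2. By the mean of the 34 members or of the 17 mitosis genes, the Eµ-TCL1 mouse lay above Eµ-PRMT5 mice 1 and 2 and below the other 5 mice. By the mean of the 53 other replication genes, it also lay above Eµ-PRMT5 mouse 3 (5.12 against 5.08).

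**Figure D4:**
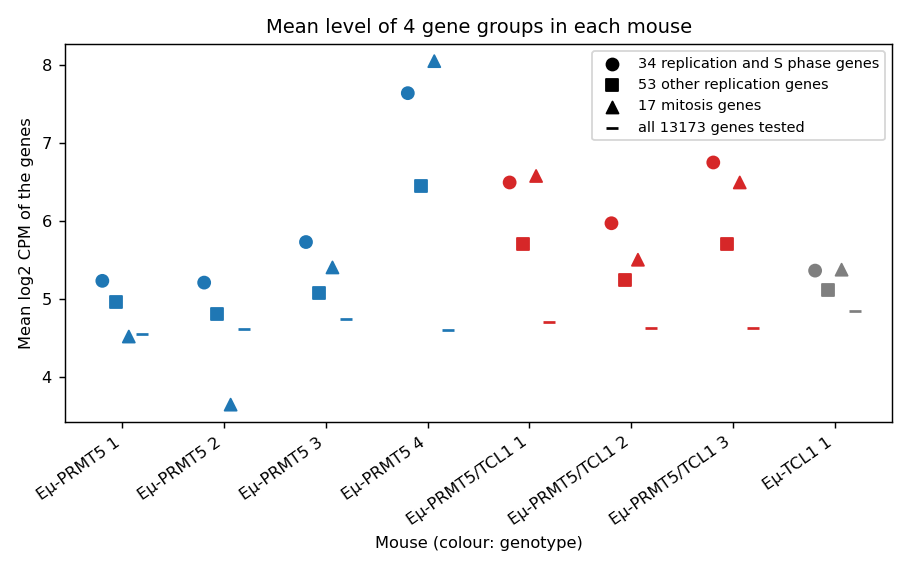
Mean log2 CPM of the 34 replication and S phase genes, 53 other replication genes, 17 mitosis genes and all 13173 tested genes in each of the 8 mice, coloured by genotype, with 1 marker per mouse and gene group. The 3 cycle-related groups peak in Eµ-PRMT5 mouse 4, at 7.64, 6.46 and 8.05, while the mean of all genes stays between 4.55 and 4.85.

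Markers of other cell types moved with the replication genes in part. The 7 B cell markers summed to 5571, 3852, 6649 and 1899 CPM in Eµ-PRMT5 mice, to 3441, 5106 and 8482 CPM in Eµ-PRMT5/TCL1 mice and to 4746 CPM in the Eµ-TCL1 mouse. Eµ-PRMT5 mouse 4 had the smallest sum and was the lowest of the 8 for 4 of the 7. The 11 granulocyte precursor markers summed to 2851, 2318, 485 and 8040 CPM, then to 10001, 5572 and 714 CPM, and to 715 CPM in the Eµ-TCL1 mouse, and mouse 4 was the highest of the 8 for 4 of the 11. Of 10 erythroid markers, 7 were tested, and these summed to 112, 30.1, 66.3 and 460 CPM, then to 343, 104 and 84.8 CPM, and to 41.9 CPM in the Eµ-TCL1 mouse. Mouse 4 was the highest for 4 of the 7, namely Slc4a1, Ermap, Hbb-bt and Klf1, the erythroid transcription factor, which was at 32.9 CPM there and at 0 in Eµ-PRMT5 mouse 1. Plasma cell markers, by contrast, summed to 689 CPM in Eµ-PRMT5 mouse 4 and to 1586 to 5760 CPM in the other mice of its genotype. Their sums were 637, 518 and 2819 CPM in Eµ-PRMT5/TCL1 mice 1 to 3 and 2068 CPM in the Eµ-TCL1 mouse. Double transgenic mice 1 and 2 thus lay below mouse 4. The 4 tested of 7 macrophage markers summed to 143 to 428 CPM in Eµ-PRMT5 mice, with the most in mouse 4, to 280 to 736 CPM in Eµ-PRMT5/TCL1 mice and to 155 CPM in the Eµ-TCL1 mouse. The other 3, which lack a value in some libraries, peaked in Eµ-PRMT5 mouse 4, with C1qa at 45.1, C1qb at 316 and C1qc at 118 CPM, where the highest other value was 13.9, 40.5 and 25.2 CPM. The 5 tested of 8 T cell markers summed to 254 to 684 CPM, 249 to 714 CPM and 203 CPM in the same groups. Dividing precursors of granulocytes and red cells also express replication genes, and their part in the level of mouse 4 was not tested.

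In Eµ-PRMT5/TCL1 mouse 3, the sums of T cell, granulocyte precursor, erythroid, macrophage and plasma cell markers all lay within the range of Eµ-PRMT5 mice 1 to 3, and the B cell markers were the highest of the 8. Single erythroid markers did not all follow the sum. Klf1 was at 9.99 CPM in this mouse, against 0 to 1.11 CPM in Eµ-PRMT5 mice 1 to 3, Slc4a1 at 16.9 against 0.203 to 9.35 CPM, and Ermap at 16.9 against 8.55 to 14.8 CPM. Its mean over the replication genes was 6.75, against 5.21 to 5.73 in those 3 mice, and it lay above all 3 of them for 32 of the 34 members (19.8% of all genes). Eµ-PRMT5 mouse 4, left out of this count, was the highest Eµ-PRMT5 mouse for every member, so that share is no like baseline. The part of other cell types in the level of Eµ-PRMT5/TCL1 mouse 3 was not tested.

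**Figure D5:**
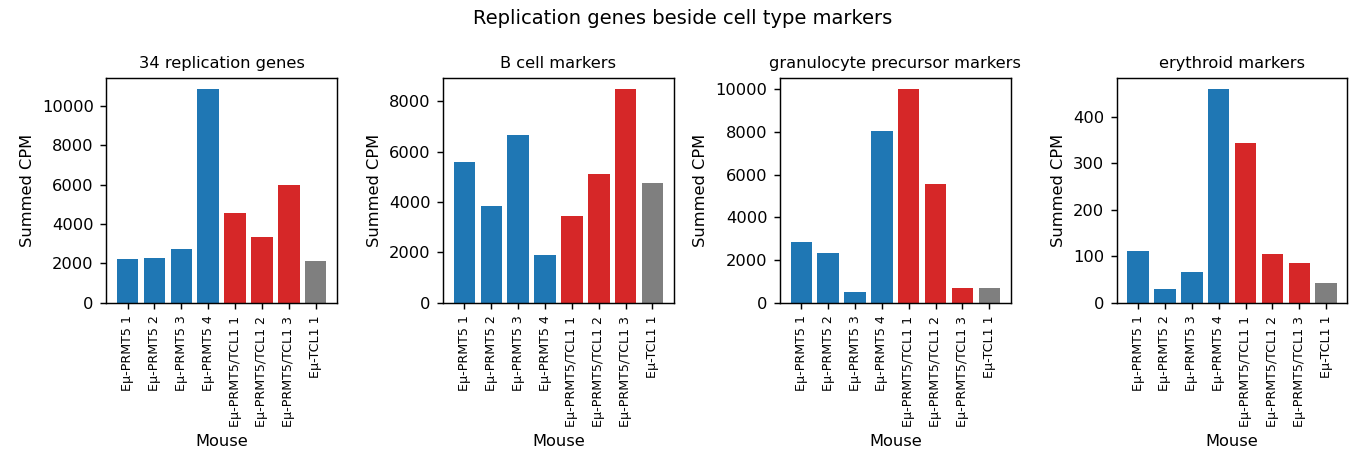
Summed CPM of the 34 replication and S phase genes, 7 B cell markers, 11 granulocyte precursor markers and 7 erythroid markers in each of the 8 mice, coloured by genotype. Eµ-PRMT5 mouse 4 combines the tallest replication bar (10847 CPM) with the shortest B cell bar (1899 CPM), and Eµ-PRMT5/TCL1 mouse 3 the next replication bar (5996 CPM) with the tallest B cell bar (8482 CPM).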

How the data were processed

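Splenic B cells of 8 mice at ERC were profiled by bulk RNA-seq. By the methods, pan-B cells were isolated magnetically, cDNA was preamplified from a low RNA input, and libraries were sequenced paired-end and passed through the CLEAR workflow. The labels describe a different library kit. Raw read counts for each gene symbol were deposited by mouse, not normalized or pooled; the labels' processing notes name GRCm38, featureCounts and DESeq2 1.20.0. The aligner, annotation and use of strand are not given in the sources used here. NA stood in 36919 cells and was not read as 0, which left 14072 symbols with a value in all 8 libraries. Totals were 3356297 to 10252426 counts. No molecular identifiers are described, so counting precision is that of reads.

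Counts were fitted with edgeR 4.0.16 (R 4.3.3) with TMM scaling. After filterByExpr by genotype, 13173 genes entered a single model of the 3 genotypes, and quasi-likelihood p-values were adjusted over all of them by Benjamini-Hochberg; the biological coefficient of variation was 0.483. The code was tested on simulated counts. Standard errors were derived from the F statistic. List means are of log2 CPM and were not tested between genotypes. Levels per kilobase used the union of GENCODE vM21 exons (GRCm38), and promoters came from RefSeq (GRCm38.p6). The members, the other lists and the tests were chosen with earlier results of these data known. The rule for named genes covered the 34 members, genes of the mitosis and cell type lists, and of the other replication genes the 4 highest and 4 lowest fold changes. Mice are separate animals with 1 library each. Mice that share a replicate number were not taken as pairs. Alternatives were DESeq2 1.42.0, other scalings, filters and prior counts, the 2 groups compared alone, NA as 0, a replicate block and each mouse left out. Thinned libraries, the joint omission of 2 mice and the 6 mice of the block fitted without it were added after seeing the data. Python 3.11.15 was used for summaries.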

Additional observations from a re-analysis of the deposited data

Results flagged for a closer look

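Among the 4 Eµ-PRMT5 mice, 37 results were examined for a mouse far from the other 3 (Dixon's test at the 95% level, on log2 CPM), and 6 were past the limit, where chance alone would give about 1.85. In each of the 6 it was mouse 4. It had 117 CPM for the origin recognition gene Orc6 against 21.9 to 27.1 CPM in the others, and 130 CPM for the clamp loader gene Rfc3 against 33.3 to 39.0 CPM. For Pold1 it had 323 CPM against 113 to 134 CPM, and for the ligase gene Lig1 412 CPM against 43.2 to 57.2 CPM. Rrm1, the large subunit of ribonucleotide reductase, was at 815 CPM against 112 to 153 CPM. The mean log2 CPM of the 53 other replication genes was 6.46 against 4.81 to 5.08. On the CPM scale, 21 of the 34 members were past the same limit, against 5 on the log2 scale. The results share their libraries and are not independent.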

How the results depend on the processing

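No member passed at an adjusted p under 0.05 in any of the 3 comparisons under the alternatives run, and the 38 recomputed differences of the set mean moved by less than the pooled SD. The counts at an unadjusted p moved more. For Eµ-PRMT5/TCL1 against Eµ-PRMT5, 1 member was higher with DESeq2 or upper-quartile factors (1.11% and 1.09% of all genes). The count was also 1 with at least 10 counts in every library or only the 2 groups compared (1.02% and 0.961%). With each mouse left out this count ranged from 0 to 20, and the value of 20 came without Eµ-PRMT5 mouse 4 (2.98% of all genes in that fit). For Eµ-PRMT5 against Eµ-TCL1, 3 members were higher with DESeq2 (4.92% of all genes). The count was 2 with no filter, with at least 10 counts or with only the 2 groups (1.93%, 2.42% and 0.985%). With each mouse left out it was 1 to 3, beside 1.18% to 4.51% of all genes. Members lower there ranged from 0 to 1, with 1 only without Eµ-PRMT5 mouse 4 (3.94% of all genes). For Eµ-PRMT5/TCL1 against Eµ-TCL1, 2 were higher by library size only (1.04% of all genes). There were 18 with only the 2 groups compared (8.68% of all genes in that fit), and 1 to 12 with each mouse left out. The count was 12 without Eµ-PRMT5 mouse 4 (3.61% of all genes). It was 2 when Eµ-PRMT5 mouse 3 was left out, or Eµ-PRMT5/TCL1 mouse 1 (1.97% and 1.09% of all genes). Without Eµ-PRMT5/TCL1 mouse 3 it was 1 (1.55%). The median SD of a member's log2 CPM in Eµ-PRMT5 mice was 1.19 with mouse 4 and 0.455 without it. Fitting Eµ-PRMT5/TCL1 against Eµ-TCL1 alone leaves out every Eµ-PRMT5 mouse. Whether the spread accounts for the larger counts was not tested. Mouse 4 was also the highest of its genotype for every member. Without it, the share of all genes is no like baseline for the comparison of the replicated groups. Members with every Eµ-PRMT5/TCL1 mouse above every Eµ-PRMT5 mouse ranged from 1 to 19 with each mouse left out. Of all genes, 1.35% met this with all mice and 5.5% without Eµ-PRMT5 mouse 4. The members numbered 19 without mouse 4 of Eµ-PRMT5 and mouse 1 of Eµ-PRMT5/TCL1, for which no share of all genes is given.

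For mice with the same number in the 2 replicated groups, deviations from the group means had correlations across genes of -0.02, 0.15 and 0.16. Mice with different numbers were not correlated for reference, so these values cannot decide whether the numbers mark pairs. The numbers were not taken as pairs. With the number as a replicate block on mice 1 to 3, 20 members were higher at an unadjusted p (3.94% of all genes), and the same 6 mice without the block also gave 20 (2.98%). Both fits leave out Eµ-PRMT5 mouse 4, so the same limit holds for these shares. Of the recomputed fold changes, 236 kept their direction and 11 turned above 0, all 11 without Eµ-PRMT5 mouse 4. With each mouse left out, the lowest and highest values were -0.99 and 0.57 for Orc1, -0.74 and 0.058 for Tk1, -0.65 and 0.56 for Orc6, and -0.74 and 1.01 for Mcm10, the highest always without mouse 4. Orc1 was at 0.37 with the block and 0.56 in the same 6 mice, Orc6 at 0.55 and 0.56, and Mcm10 at 1.18 and 1.01. Tk1 was at 0.056 in the 6 mice.

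The genotypes rest on 4, 3 and 1 mice, and 1 mouse sets the sign of several values. The depth limits what can be said of Fen1, E2f1, Orc1 and the GINS genes, whose counts were low. It also limits what can be said of Cdc6, with 38 to 63 counts in Eµ-PRMT5 mice 1 to 3. With 1 Eµ-TCL1 mouse its own spread is unknown.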
